A study of Mus musculus with 9 samples.

Results

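Gene levels in the embryonic cerebral cortex of mice labelled Sfpq-/- were compared with those of wild-type controls, using exon arrays hybridised with total RNA. Members were chosen by sample title: the 3 homozygous knock-out arrays and the 3 control arrays, so that 6 of the 9 arrays of the series enter the difference. The other 3 arrays are labelled Sfpq+/- and share the estimate of the spread. All 9 samples came from frozen cortical regions at stage E13.5. The labels do not state how the Sfpq allele was made, in which cells it is lost, or whether litters were shared, and their note on RNA extraction names Sfpq+/- in 2 places and Sfpq-/- in none. Limma's adjusted p-values below therefore measure the spread between these samples only. A gene level is the mean log2 signal of the probe sets of that gene that passed a filter on low signal, and 16854 genes had at least 3 of them. A difference of 1 on this scale is a 2-fold difference in signal. Error terms given as ± after a group mean are SD over 3 arrays, and those after a difference are SE from limma.

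SFPQ is a nuclear protein of the DBHS family, whose members bind RNA, DNA and each other. It takes part in transcription by RNA polymerase II, in the splicing and 3′ processing of RNA, and in paraspeckles, the nuclear bodies built on the long noncoding RNA Neat1. In the developing cortex, progenitors next to the ventricle divide and release neurons, which then migrate outward and grow axons, so genes of division, migration, adhesion and excitability are all active in the tissue at this stage.

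The targeted gene itself gave a check of the Sfpq-/- label. The Sfpq level read 10.33, 10.19 and 9.88 on control arrays 1 to 3, 10.53, 10.15 and 10.09 on the Sfpq+/- arrays and 8.94, 9.27 and 8.74 on the Sfpq-/- arrays. All 3 Sfpq-/- arrays lay below every control array (log2 change -1.15 ± 0.16 SE, adjusted p = 0.000787), and signal was still present in them. The arrays labelled Sfpq+/- averaged 10.25 against 10.14 in controls and overlapped with them, so the level of Sfpq did not bear out the heterozygous label, and Sfpq+/- below stands for that label only. Of its 23 probe sets, 12 had a control signal above 10, and 11 of those 12 were lower by more than 1, with a median difference of -2.08 and a range of -2.45 to -0.66. The 11 dimmer probe sets had a median difference of -0.15, which draws the gene mean toward 0. The labelled tissue was checked against pallial factors: Lhx2 averaged 11.91 ± 0.04 and Neurod6 11.34 ± 0.06 in controls, and Tbr1 9.87 ± 0.06.

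Embryo sex was not matched between the groups. Xist, the RNA that coats the inactive X chromosome of female cells, read 11.79, 11.65 and 5.29 on the control arrays and 11.48, 5.06 and 5.19 on the Sfpq-/- arrays, so 2 controls and 1 Sfpq-/- array were high. The Y-linked gene Kdm5d read 4.74, 4.95 and 9.10 in controls against 4.93, 9.32 and 8.83 in Sfpq-/-, low on the same arrays. With sex as a term in the model, 1987 genes passed, 1056 higher and 931 lower, against 2040 without it. Array medians lay between 5.65 and 5.7. The median standard error of a gene's difference, 3 arrays against 3 with the spread estimated over all 9, was 0.096.

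Across all genes, 1008 (5.98%) were higher and 1032 (6.12%) were lower in Sfpq-/- cortex at an adjusted p under 0.05, together 12.1% of those tested. Without the adjustment, 4073 genes had a p under 0.05. The arrays of the 2 groups did not overlap for 4530 genes (26.9%), of which 2710 (16.1%) were higher and 1820 (10.8%) lower, and 2034 of the 2040 genes that passed were among these. The counts were close to equal, but the sizes were not. Among genes that differed by 1 to 2 log2 units, 47 were higher and 140 lower, and past 2 units 6 were higher and 11 lower. Between 0.25 and 0.5 units the order turned, with 620 higher and 451 lower. The median difference over all genes was 0.03.

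The rises depended more on single arrays than the falls did. With each of the 6 arrays left out in turn, 697 of the 1032 lower genes and 474 of the 1008 higher genes passed in the same direction every time. Leaving out control 2 gave 574 higher and 769 lower genes, and leaving out Sfpq-/- 1 gave 543 and 768. Without control 3 there were 612 higher and 894 lower genes, and without Sfpq-/- 3 there were 1477 and 976. Within genes that passed, probe sets mostly moved together. The median lower gene had 96.0% of its probe sets lower and the median higher gene 96.7% higher. The median gene that did not pass had 55.6% of its probe sets higher. That share was counted whichever way the gene mean moved, so it is not a like comparison. For 95 of the 151 genes that fell by more than 2-fold, and for 42 of the 53 that rose by as much, every probe set lay on the same side.

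The 10 strongest rises, led by Olig3, were followed by 15 genes of mixed function, ranked 11 to 25 by size, and several of these belong to neuronal signalling. Ranks were drawn from genes that passed and whose control and Sfpq-/- arrays did not overlap. Slc2a3, the glucose transporter GLUT3 of neurons, read 9.28, 9.10 and 9.36 in the controls and 10.99, 10.75 and 10.74 in the Sfpq-/- arrays, 2.99-fold higher (log2 change 1.58 ± 0.10 SE, adjusted p = 2.5e-06). Chrna4, the alpha 4 subunit of the nicotinic acetylcholine receptor, read 8.44, 8.27 and 8.02 in controls against 9.68, 9.65 and 10.001 in Sfpq-/- (log2 change 1.53 ± 0.13 SE, adjusted p = 1.65e-05). For both genes the lowest Sfpq-/- array stood more than 1 log2 unit above the highest control, and the Sfpq+/- arrays lay with the controls.

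Htr2a, a serotonin receptor that couples to phospholipase C, read 7.70, 7.87 and 7.72 in controls and 9.19, 8.93 and 9.06 in Sfpq-/- cortex (log2 change 1.30 ± 0.10 SE, adjusted p = 1.07e-05). Cck, the precursor of the neuropeptide cholecystokinin, read 7.88, 7.42 and 7.75 in controls against 9.02, 8.88 and 9.09 in Sfpq-/- (log2 change 1.32 ± 0.13 SE, adjusted p = 6.17e-05). Rasgrp1, an exchange factor that activates Ras in response to diacylglycerol and calcium, was already bright in controls, at 9.39, 9.32 and 8.50, and read 10.56, 10.33 and 10.37 in Sfpq-/- (log2 change 1.35 ± 0.20 SE, adjusted p = 0.00113). Arrays apart were a condition of this ranking. For these 3 genes the controls differed among themselves by less than the group means did, most for Rasgrp1. Scn11a, the voltage-gated sodium channel Nav1.9, was tighter still, with 6.26, 6.28 and 6.35 against 7.76, 7.83 and 7.67 (log2 change 1.46 ± 0.08 SE, adjusted p = 1.1e-06).

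The other genes of this tier were not neuronal as a set. Upp1, the uridine phosphorylase that splits uridine into uracil and ribose phosphate, rose by 1.38 ± 0.07 (SE), from 7.20 ± 0.03 to 8.58 ± 0.07. Eda2r, a receptor of the TNF receptor family, rose by 1.37 ± 0.15, and Slc7a3, a transporter of cationic amino acids, by 1.37 ± 0.09. Mab21l1, a developmental gene of eye and brain, rose from 8.51 ± 0.16 to 10.05 ± 0.30. Omg, a myelin-associated glycoprotein that binds the Nogo receptor, started near the filter level at 5.69 ± 0.19 and reached 7.15 ± 0.18. Samd3 (change 1.50), which carries a SAM domain, and Scel (1.30), a protein of cornified epithelia, also rose. Acot1, an acyl-CoA thioesterase, rose by 1.31 ± 0.15, and its close paralog Acot2 rose by 0.69 ± 0.10. Probes for 1 of these paralogs may read the other, so their separate values are uncertain. All 15 genes kept their call with any 1 of the 6 arrays left out.

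**Figure D1:**
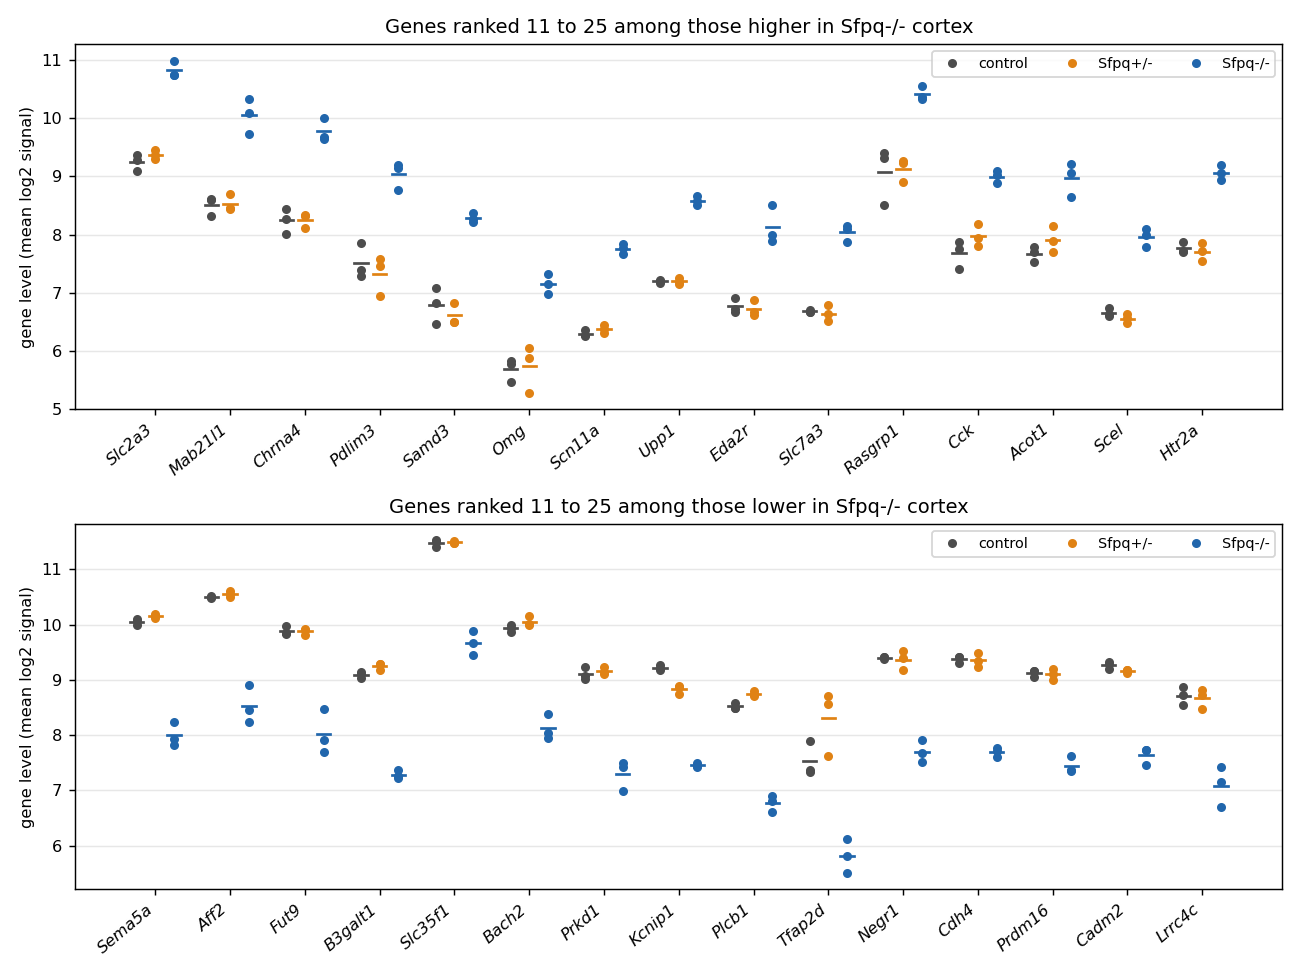
Gene level on each array, on a log2 scale, for the genes ranked 11 to 25 by size among those higher (upper panel) and lower (lower panel) in Sfpq-/- cortex; each point is 1 array and each bar a group mean of 3 arrays. The Sfpq-/- points are apart from the control points because genes were ranked on that condition. For every gene shown the Sfpq+/- mean lies nearer to the control mean than to that of Sfpq-/-.

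The start regions of the genes that rose most were searched for the cyclic AMP response element, to which CREB and ATF factors can bind. RefSeq promoter windows on GRCm38.p6 held the 250 bases before the start for 13120 of the genes tested, and the letters TGACGTCA, a palindrome that reads the same on both strands, stood in 2.64% of them. The share was 2.45% among higher genes (19 of 776) and 3.5% among lower genes (28 of 799). Of 37 genes that rose by more than 2-fold and had a window, 3 (8.11%) held it, against 2 of 114 that fell by as much (1.75%). These 3 are Th, which encodes tyrosine hydroxylase, Pdlim3, which encodes a PDZ and LIM domain protein that binds alpha-actinin, and Cldn6, a claudin of tight junctions. They are shown because the element lies at nearly the same distance before each start, at 45, 48 and 40 bases, and were chosen after their values were seen. Over all 16576 promoters in the table, 371 held the element, 75.2% of them within 100 bases of the start. The last 90 bases before each start follow, 5′ to 3′, from RefSeq on GRCm38.p6, for Th at chr7:142899996-142900085 on the minus strand, Pdlim3 at chr8:45885397-45885486 on the plus strand and Cldn6 at chr17:23679275-23679364 on the plus strand; capitals mark the element.
Th: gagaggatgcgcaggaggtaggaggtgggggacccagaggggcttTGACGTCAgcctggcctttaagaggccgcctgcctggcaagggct
Pdlim3: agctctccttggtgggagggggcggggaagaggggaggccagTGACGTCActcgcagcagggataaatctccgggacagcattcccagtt
Cldn6: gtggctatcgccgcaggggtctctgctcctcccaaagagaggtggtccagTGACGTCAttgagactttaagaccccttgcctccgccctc
A match of letters is a description and not a measured binding site. Pdlim3 read 7.85, 7.40 and 7.29 in controls and 9.14, 8.77 and 9.19 in Sfpq-/- (log2 change 1.52 ± 0.19 SE, adjusted p = 0.00031), and Cldn6 read 6.43, 6.70 and 6.65 in controls against 7.94, 7.47 and 8.02 in Sfpq-/- (log2 change 1.22 ± 0.14 SE, adjusted p = 0.000153). Pdlim3 was ranked on condition that its arrays did not overlap, and those of Cldn6 did not overlap either. The TATA box letters TATAAA were found in 9.31% of all promoters, 10.05% of those of higher genes and 8.14% of those of lower genes, on either strand. They stood in 6 of the 37 promoters of genes that rose by more than 2-fold (16.22%). For genes that fell by as much it was 5 of 114 (4.39%).

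Below the 10 strongest falls, which include Dcc and Npas3, stood 15 genes of cell adhesion, calcium and lipid signalling, glycan synthesis and transcription. Sema5a, a transmembrane semaphorin, read 10.11, 9.99 and 10.07 in controls and 7.94, 8.24 and 7.83 in Sfpq-/- arrays, 4.14-fold lower (log2 change -2.05 ± 0.10 SE, adjusted p = 1.1e-06). Aff2, a nuclear protein of the AF4/FMR2 family, read 10.49, 10.48 and 10.51 in controls against 8.46, 8.90 and 8.24 in Sfpq-/- (log2 change -1.96 ± 0.13 SE, adjusted p = 5.38e-06). Slc35f1, an orphan member of a nucleotide sugar transporter family, was among the brightest genes at 11.52, 11.49 and 11.41 and read 9.66, 9.88 and 9.46 (log2 change -1.81 ± 0.10 SE, adjusted p = 1.35e-06). In each case the controls lay close together and the Sfpq-/- arrays spread more widely. Arrays apart were a condition of this ranking too.

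Enzymes of cell-surface glycans fell in this tier. Fut9, which makes the Lewis x epitope, read 9.97, 9.84 and 9.85 in the controls and 7.92, 8.47 and 7.70 in Sfpq-/- (log2 change -1.86 ± 0.16 SE, adjusted p = 1.76e-05), and B3galt1, a galactosyltransferase, read 9.15, 9.10 and 9.04 in controls against 7.38, 7.26 and 7.22 in Sfpq-/- (log2 change -1.81 ± 0.08 SE, adjusted p = 5.29e-07). Signalling proteins included Plcb1, phospholipase C beta 1, with 8.49, 8.49 and 8.59 in controls against 6.81, 6.90 and 6.60 in Sfpq-/- (log2 change -1.75 ± 0.09 SE, adjusted p = 1.1e-06). Prkd1, protein kinase D1, fell by 1.80 ± 0.12 (SE), and Kcnip1, a calcium-binding subunit of Kv4 potassium channels, fell by 1.77 ± 0.07. The adhesion genes were Negr1 (change -1.70), an IgLON protein, Cdh4 (-1.68), R-cadherin, Cadm2 (-1.64), a synaptic cell adhesion molecule, and Lrrc4c (-1.62), the netrin-G1 ligand.

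The transcription factors of this tier were Bach2, Prdm16 and Tfap2d. Bach2, a repressor of the bZIP family, read 9.87, 9.94 and 9.99 in controls and 8.04, 8.39 and 7.96 in Sfpq-/- (log2 change -1.81 ± 0.11 SE, adjusted p = 2.16e-06). Prdm16, a zinc finger protein of radial glia, read 9.05, 9.15 and 9.17 in controls against 7.36, 7.63 and 7.36 in Sfpq-/- (log2 change -1.67 ± 0.09 SE, adjusted p = 1.42e-06). Tfap2d, AP-2 delta, read 7.37, 7.34 and 7.89 in controls against 5.81, 5.51 and 6.12 in Sfpq-/- (log2 change -1.72 ± 0.26 SE, adjusted p = 0.00132). Tfap2d was the shortest gene of the 15, spanning 70.9 kb of genome. The other 14 spanned from 190.7 kb (Fut9) to 1313.5 kb (Lrrc4c). All 15 passed with any 1 array left out.

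Some genes outside those tiers changed by less but had a large change relative to their standard error. Among the higher ones with the largest moderated t, Scube2, a secreted protein that binds Sonic hedgehog, rose from 6.89 ± 0.09 to 8.15 ± 0.12 (log2 change 1.26 ± 0.09 SE, adjusted p = 5.98e-06). Cbln4, a cerebellin that organises synapses, rose from 7.99 ± 0.02 to 9.09 ± 0.05 (log2 change 1.10 ± 0.08 SE, adjusted p = 7.15e-06), and Sall2, a zinc finger transcription factor, from 9.54 ± 0.06 to 10.60 ± 0.12 (log2 change 1.06 ± 0.08 SE, adjusted p = 1.07e-05). Cpne5, a calcium-dependent copine, rose by 0.90 ± 0.07, St18, a zinc finger factor of the Myt1 family, by 1.17 ± 0.09, and Btla, a receptor of lymphocytes, by 1.18 ± 0.08 from a control level near the filter (5.56 ± 0.01).

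Among the lower ones Mpped2, a metallophosphoesterase of fetal brain, was the tightest, at 11.85, 11.90 and 11.88 in controls and 10.29, 10.41 and 10.34 in Sfpq-/- (log2 change -1.53 ± 0.07 SE, adjusted p = 5.29e-07). Ankrd6, which encodes the Wnt and planar polarity protein Diversin, fell by 1.37 ± 0.07 (SE). Akap6, a scaffold that holds protein kinase A at the nuclear envelope, fell by 1.57 ± 0.08, and Klhl29, a kelch-like protein, by 1.48 ± 0.08. Guidance proteins, Sema5b (-1.47 ± 0.08) and the receptor Ephb2 (-1.39 ± 0.07), completed the set. For these 12 genes no single array decided the call.

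Large relative changes also reached the most strongly expressed genes, here those with a mean level of at least 10.46. Ddah1, which degrades methylated arginines that inhibit nitric oxide synthase, read 12.07, 11.98 and 12.06 in controls and 10.60, 10.76 and 10.64 in Sfpq-/- (log2 change -1.37 ± 0.08 SE, adjusted p = 1.86e-06). Mmd2, a membrane protein of the PAQR family, read 11.92, 11.97 and 12.09 in controls against 10.84, 10.76 and 10.998 in Sfpq-/- (log2 change -1.13 ± 0.09 SE, adjusted p = 1.15e-05). Nfia, a nuclear factor I transcription factor, fell from 11.78 ± 0.06 to 10.82 ± 0.11, and Pbk, a mitotic kinase of only 11.9 kb, from 10.92 ± 0.14 to 9.99 ± 0.25. On the other side, Ccng1, cyclin G1, rose from 10.81 ± 0.09 to 11.66 ± 0.12 (log2 change 0.84 ± 0.09 SE, adjusted p = 0.000103) and Syt5, a calcium sensor of vesicles, from 10.68 ± 0.05 to 11.54 ± 0.20 (log2 change 0.86 ± 0.11 SE, adjusted p = 0.000276). Igfbp5, a secreted binding protein of insulin-like growth factors, rose by 0.70 ± 0.07, the RNA-binding protein gene Rbm12 by 0.72 ± 0.10, and Pgap1, which remodels GPI anchors, by 0.65 ± 0.07. Rtn3, a reticulon of the endoplasmic reticulum, rose by 0.61 ± 0.11 as a gene mean, but 14 of its 25 probe sets were lower, so its probe sets disagree.

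Gene span, the genomic distance from the start to the end of the annotated gene, was compared together with expression level. Genes were placed in 4 equal bins of mean level. In the dimmest bin (5.75 to 7.28) the share of genes that fell was 1.2% below 100 kb and 39.7% (25 of 63) at 500 kb or more. In the second bin (7.28 to 8.37) the same shares were 3.0% and 60.8% (45 of 74), and in the next (8.37 to 9.51) they were 3.7% and 69.2% (36 of 52). In the brightest bin (9.51 to 14.04) they were 3.5% and 81.2% (13 of 16), the last resting on few genes. The rise of the share with span was thus present at every level, and within each span class the dimmest bin had the smallest share.

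Genes that rose showed no such order. Their share lay between 3.8% and 7.9% below 100 kb and was 0.0% at 500 kb or more in every bin but that of 8.37 to 9.51, where 1 of 52 genes rose (1.9%). Of genes spanning 100 kb or more, 608 of 2253 fell and 133 rose, and of shorter genes 408 of 14441 fell and 869 rose. The 408 shorter lower genes became 269 without control 1, 246 without control 2 and 257 without Sfpq-/- 1, and the 133 longer higher genes became 73 without control 2, 83 without control 3 and 80 without Sfpq-/- 1. The count of long genes that fell moved by less than 1.5 times whichever array was left out.

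**Figure D2:**
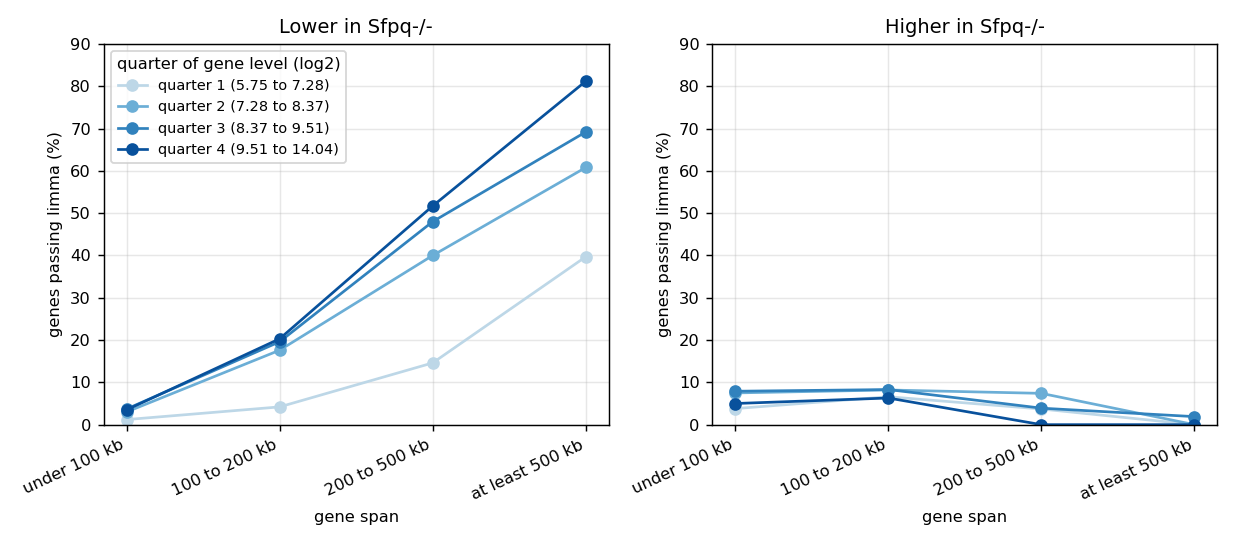
Percent of genes that passed limma as lower (left) or higher (right) in Sfpq-/- cortex, against gene span in 4 classes, with a line for each of 4 equal bins of mean level on the log2 scale. The lower shares climb with span in all 4 bins, up to 81.2% at 500 kb or more in the brightest bin, while the higher shares reach at most 8.3%.

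Short genes that fell were looked at next. Dct, a melanin-pathway enzyme that is also made by cortical progenitors, spans 39.5 kb and read 8.80, 8.85 and 8.88 in controls against 7.34, 7.68 and 7.29 in Sfpq-/- (log2 change -1.41 ± 0.10 SE, adjusted p = 8.21e-06). Neurod4, a proneural bHLH factor of 12.1 kb, read 9.71, 9.84 and 9.99 in controls against 8.81, 8.90 and 8.49 in Sfpq-/- (log2 change -1.11 ± 0.11 SE, adjusted p = 7.32e-05). Srsf4, a splicing factor of the SR family, spans 28.2 kb and read 10.36, 10.33 and 10.12 in controls against 9.20, 9.27 and 9.20 in Sfpq-/- (log2 change -1.05 ± 0.10 SE, adjusted p = 4.53e-05). Each of these fell by 2-fold or more, and arrays apart were a condition of the choice. Cer1, a secreted inhibitor of BMP and Nodal ligands and only 3.4 kb long, fell from 7.30 ± 0.24 to 6.21 ± 0.11 (log2 change -1.09 ± 0.13 SE, adjusted p = 0.000192). Ube2ql1, a ubiquitin-conjugating enzyme, fell from 10.64 ± 0.07 to 9.63 ± 0.16 (log2 change -1.01 ± 0.10 SE, adjusted p = 7.31e-05). Dlx1as, a noncoding RNA from the strand opposite to the interneuron gene Dlx1, fell from 8.53 ± 0.50 to 7.56 ± 0.48 (log2 change -0.97 ± 0.26 SE, adjusted p = 0.0354), but the call was lost without control 1, control 2, Sfpq-/- 1 or Sfpq-/- 3. Dlx1 itself had a difference of -0.06 ± 0.20 (adjusted p = 0.907), and how far the probe sets separate the 2 strands was not tested.

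The opposite exceptions were long genes that rose. St18, spanning 373.7 kb, read 9.09, 8.92 and 8.90 in controls and 10.25, 10.19 and 9.97 in Sfpq-/- (log2 change 1.17 ± 0.09 SE, adjusted p = 1.05e-05). Epb41l4a, a FERM domain protein of 211.2 kb, read 8.37, 8.48 and 8.23 in controls against 9.23, 9.31 and 9.24 in Sfpq-/- (log2 change 0.90 ± 0.08 SE, adjusted p = 3.56e-05). The zinc finger genes Zfp407 (381.8 kb) and Zfp385b (407.1 kb) rose by 0.74 ± 0.07 and 0.72 ± 0.09. Plch1, phospholipase C eta 1, rose by 0.71 ± 0.12, and Samd5, a SAM domain protein, by 0.69 ± 0.12. These 6 genes passed with any 1 array left out.

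A further set of very long genes had differences near 0. Of 68 genes of at least 500 kb with a level above the median gene, the 8 closest to 0 were Nrg1, Camta1, Magi1, Ptprk, Arhgap15, Pard3, Foxp1 and Rbms3. Nrg1, a ligand of ErbB receptors that spans 1084.2 kb, read 8.78, 8.53 and 8.51 in controls and 8.63, 8.77 and 8.42 in Sfpq-/-, a difference of 0.00 with a 95% interval of -0.25 to 0.25. Camta1, a calmodulin-binding transcription activator of 802.2 kb, read 9.29, 9.23 and 9.28 in controls against 9.32, 9.27 and 9.29 in Sfpq-/-, with an interval of -0.12 to 0.16. The forkhead factor gene Foxp1 had an interval of -0.24 to 0.11, and Pard3, a protein of apical cell polarity, an interval of -0.25 to 0.13. Rbms3, an RNA-binding protein of 1057.2 kb, had an interval of -0.24 to 0.09, and Arhgap15, a Rac inhibitor, an interval of -0.22 to 0.13. These intervals leave out a 2-fold fall of the gene mean, but the genes were chosen for differences near 0 in these same values. For some of these genes the summary of probe sets mattered. With the median of probe sets in place of the mean, Camta1 differed by 0.41 and passed as higher (adjusted p = 0.0402, limma). The difference was then -0.38 for Nrg1, -0.28 for Foxp1, -0.24 for Ptprk, a receptor-type phosphatase, -0.21 for Pard3 and 0.12 for Magi1, none of which passed.

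**Figure D3:**
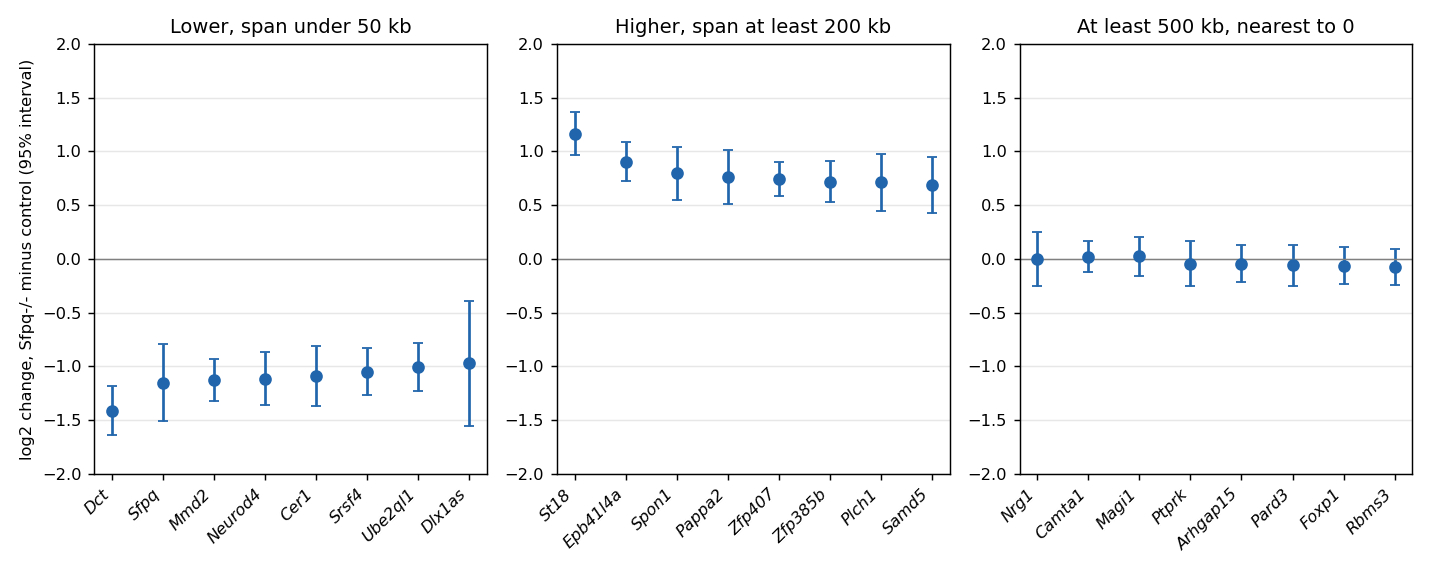
Log2 change of Sfpq-/- over control with its 95% interval from limma (3 arrays in each group) for short genes that fell (left), long genes that rose (middle) and genes of at least 500 kb with the change closest to 0 (right). The genes of the left and middle panels were chosen because they passed, so their intervals exclude 0. Those of the right panel were chosen for the smallest difference, and their intervals include 0 and lie between -0.25 and 0.25.

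Gene groups of neuronal excitability were then described from lists of family members, of which 25 were used. Each count is to be read against the 5.98% higher and 6.12% lower over all genes. Falls also differed by span: 27.0% of all genes of at least 100 kb and 2.8% of shorter ones fell. A list with many long members is to be read against those shares. Another setting is named beside a count where it moved that count by more than 1.5 times. These settings were no filter on probe sets or a filter at the 75th percentile, at least 1 probe set per gene, the median of probe sets, quantile normalization, median centring, the 6 arrays alone, the sex term, and the joint omission of control 3 and Sfpq-/- 3. The replicate block and array weights are not named beside the counts, though they moved 11 and 37 of 66 list counts. With array weights 5 core spliceosome genes were higher, and 5 respiratory chain genes were higher and 1 lower. Voltage-gated potassium channels set the resting and firing properties of neurons, and 7 of 24 tested members fell and 3 rose, with a median of -0.17 against 0.03 over all genes. Kcnq3, a subunit of the M current, read 7.89, 8.01 and 8.19 in controls and 7.04, 7.01 and 6.98 in Sfpq-/- (log2 change -1.02 ± 0.10 SE, adjusted p = 5.24e-05). Kcnh7, of the Erg family, read 8.36, 8.25 and 8.39 in controls against 7.38, 7.58 and 7.21 in Sfpq-/- (log2 change -0.94 ± 0.09 SE, adjusted p = 6.9e-05). Kcnb2, of the delayed rectifier Kv2 family, fell by 0.89 ± 0.08 and Kcnq5 by 0.64 ± 0.07. These 4 genes span 300.3 kb to 564.3 kb, and of the 12 members of at least 100 kb 5 fell, against 2 of the 12 shorter ones.

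Of sodium, HCN and leak channels, 3 of 9 members of at least 100 kb fell and 0 rose, and 4 of 10 shorter members rose and 0 fell, where 27.0% of all genes of at least 100 kb fell and 6.0% of shorter ones rose. With the 75th percentile filter or the joint omission, 2 were higher, and 1 higher with the median of probe sets. Kcnk10, a leak channel of the TREK family, fell from 8.99 ± 0.05 to 8.18 ± 0.05 (log2 change -0.81 ± 0.07 SE, adjusted p = 2.15e-05), and Kcnt2, a sodium-activated potassium channel, from 6.92 ± 0.22 to 6.11 ± 0.26 (log2 change -0.82 ± 0.14 SE, adjusted p = 0.00247). Hcn4, a pacemaker channel, rose from 8.28 ± 0.03 to 8.83 ± 0.07 (log2 change 0.54 ± 0.08 SE, adjusted p = 0.000682), and the leak channel gene Kcnk1 from 7.16 ± 0.04 to 7.57 ± 0.07 (log2 change 0.41 ± 0.08 SE, adjusted p = 0.00715).

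GABA-A and glycine receptor genes had 5 of 13 members lower and 0 higher (median -0.20). There was 1 higher without control 1. The number lower was 3 with the median of probe sets. Gphn, which encodes the scaffold gephyrin of inhibitory synapses, read 9.45, 9.38 and 9.33 in controls and 8.40, 8.46 and 8.23 in Sfpq-/- (log2 change -1.02 ± 0.08 SE, adjusted p = 1.15e-05). Glra2, the embryonic glycine receptor subunit, read 9.73, 9.51 and 9.71 in controls against 8.83, 8.99 and 8.77 in Sfpq-/- (log2 change -0.79 ± 0.13 SE, adjusted p = 0.00172). Gabra4 fell by 0.73 ± 0.09 and Glrb, the beta subunit that binds gephyrin, by 0.46 ± 0.10. The scaffold and subunits of both receptor kinds were among the falls. Of the 8 members of at least 100 kb 3 fell, where 27.0% of all genes of that span did. Of the 5 shorter members 2 fell, where 2.8% of all such genes did. Of NMDA and metabotropic glutamate receptor genes, 1 of 14 rose and 1 fell: Grm2, an inhibitory autoreceptor, rose by 0.58 ± 0.08, and Grm5, which spans 551.1 kb, fell by 0.76 ± 0.12. With Sfpq-/- 2 left out, 2 were lower. The 75th percentile filter, quantile normalization or median centring gave 2 lower.

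Genes of synaptic vesicles and release had 8 of 28 members lower and 3 higher. Cadps, which primes dense-core vesicles, read 9.57, 9.48 and 9.43 in controls and 7.95, 8.33 and 7.92 in Sfpq-/- (log2 change -1.43 ± 0.11 SE, adjusted p = 8.3e-06). Erc2, an active zone scaffold, fell by 0.91 ± 0.10 and Syn2, synapsin II, by 0.74 ± 0.09, while Rph3a, a Rab3 effector, rose by 0.57 ± 0.09. The 15 members of at least 100 kb held 7 of the 8 falls, where 27.0% of all genes of that span fell. In a list of neuropeptides and aminergic receptors, which also held the nicotinic receptor gene Chrna4, 4 of 28 genes rose and 3 fell. Besides Cck, Htr2a and Chrna4, whose values are given above, Drd1, the D1 dopamine receptor, fell from 7.08 ± 0.08 to 6.45 ± 0.12 (log2 change -0.63 ± 0.12 SE, adjusted p = 0.00494). With no filter, 1 was lower. Drd1 spans only 4.5 kb.

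Genes of intracellular signalling held more falls than rises. Of 22 kinases of neurite growth and calcium signalling, 9 fell and 2 rose, and the 9 were among 14 members of at least 100 kb. Prkca and Prkce, protein kinases C alpha and epsilon, fell by 0.80 ± 0.09 and 0.72 ± 0.08. Prkg2, a cyclic GMP-dependent kinase, went the other way, from 6.78, 6.88 and 6.88 in controls to 8.37, 8.22 and 7.74 in Sfpq-/- (log2 change 1.26 ± 0.14 SE, adjusted p = 0.000118), although it spans 107.6 kb. Of 25 cyclic nucleotide phosphodiesterases and adenylyl cyclases 7 fell and 0 rose, with 5 of the falls among 17 members of at least 100 kb, near the 27.0% of all genes of that span. The count of higher members became 1 without Sfpq-/- 3. The number higher was 1 with the 75th percentile filter, quantile normalization or the sex term. Pde9a, which degrades cyclic GMP, read 9.66, 9.62 and 9.59 in controls against 9.05, 8.91 and 8.95 in Sfpq-/- (log2 change -0.65 ± 0.07 SE, adjusted p = 0.000107). Adcy3, the adenylyl cyclase of neuronal cilia, fell by 0.53 ± 0.08, Pde4d by 0.47 ± 0.08 and Pde1a by 0.44 ± 0.07.

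Over the members of all 25 groups, 44 of 136 genes of at least 100 kb (32.4%) and 18 of 450 shorter ones (4.0%) fell, where 27.0% and 2.8% of all genes of those spans did. Among shorter members 39 (8.7%) rose, where 6.0% of all such genes did.

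**Figure D4:**
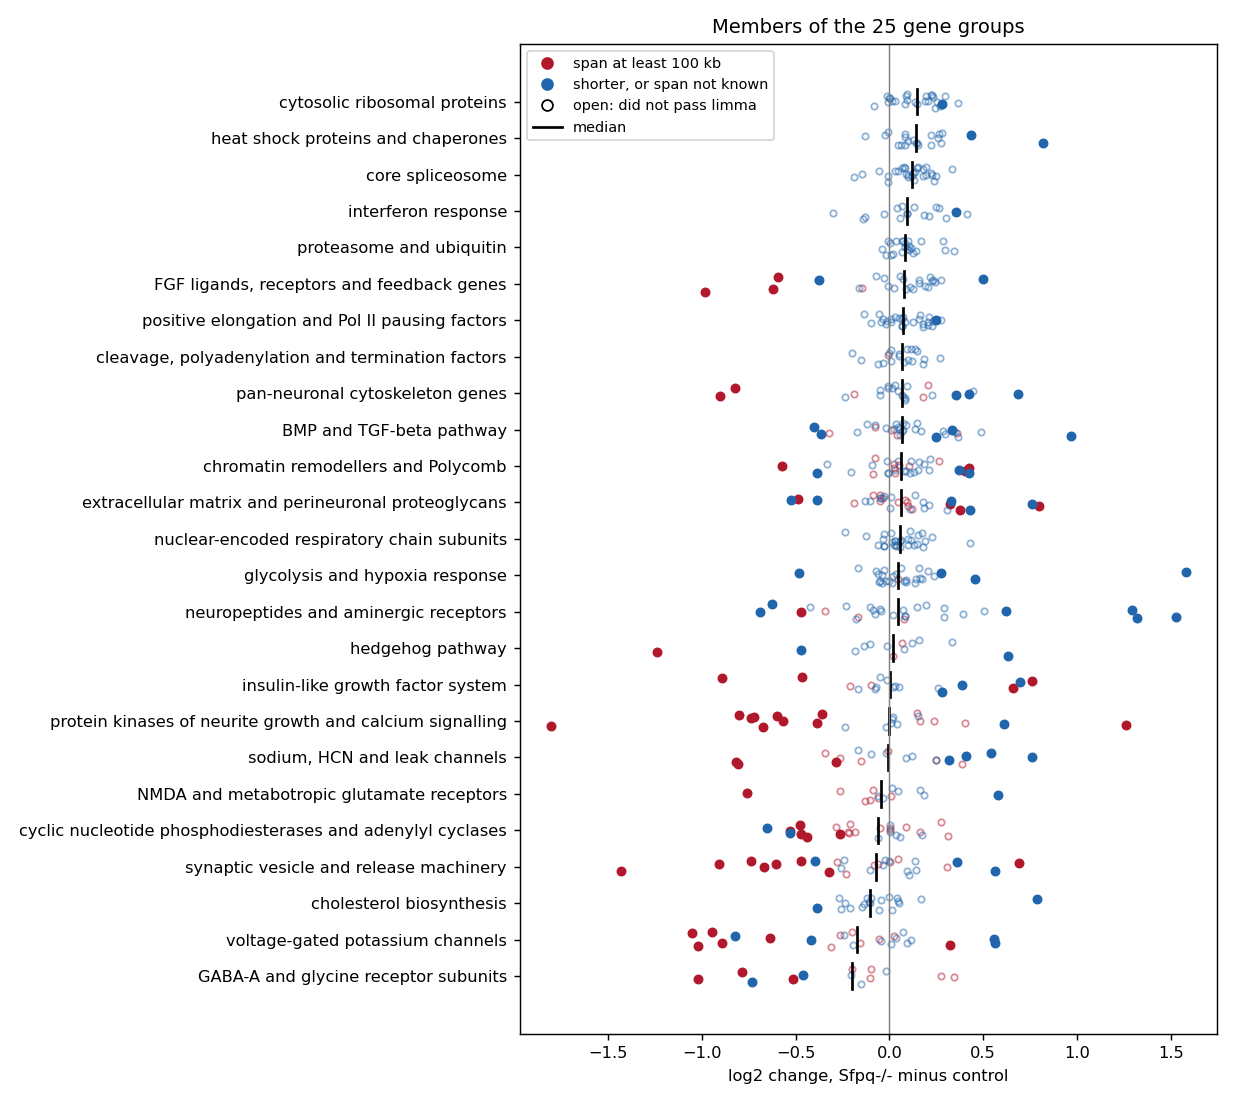
Log2 change of each tested member of 25 gene groups, ordered by group median; red marks a span of at least 100 kb, blue a shorter or unknown span, filled points passed limma and black bars are medians. The filled points to the left are mostly red, and the groups of ribosomal and spliceosomal genes near the top hold almost only open blue points.

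Among growth factor pathways, FGF signalling included 4 lower and 1 higher of 26 members. Of these falls 3 were of FGF homologous factors, intracellular proteins that bind sodium channels and do not act as ligands: Fgf13 read 9.85, 9.70 and 9.66 in controls and 8.74, 9.02 and 8.50 in Sfpq-/- (log2 change -0.98 ± 0.12 SE, adjusted p = 0.000255), Fgf14 fell by 0.62 ± 0.12 and Fgf12 by 0.60 ± 0.09. Fgfr3, a receptor of cortical progenitors, fell from 9.95 ± 0.07 to 9.57 ± 0.13 (log2 change -0.37 ± 0.08 SE, adjusted p = 0.0138), a call that was lost without control 3. Leaving out control 1, control 2, control 3 or Sfpq-/- 1 gave 0 higher. The median of probe sets gave 2 higher, and 0 higher with at least 1 probe set, quantile normalization or the joint omission. In the hedgehog pathway 2 of 13 members fell and 1 rose. Gli2, the main activating transcription factor of the pathway, read 9.18, 9.15 and 9.29 in controls against 7.97, 8.12 and 7.82 in Sfpq-/- (log2 change -1.24 ± 0.09 SE, adjusted p = 5.99e-06), and the co-receptor gene Cdon fell by 0.47 ± 0.09. Ptch1, the receptor and also a target of the pathway, rose from 9.36 ± 0.18 to 9.99 ± 0.10 (log2 change 0.63 ± 0.11 SE, adjusted p = 0.00326). Gli1, another target, had a difference of 0.16 ± 0.07 (adjusted p = 0.198).

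Of 31 BMP and TGF-beta pathway genes 3 rose and 2 fell. Fst, the activin antagonist follistatin, read 7.50, 7.36 and 7.36 in controls and 8.67, 8.33 and 8.13 in Sfpq-/- (log2 change 0.97 ± 0.12 SE, adjusted p = 0.000267). Id2, a target of BMP signalling, fell from 11.64 ± 0.00 to 11.23 ± 0.15 and Bmp3 from 7.94 ± 0.06 to 7.58 ± 0.06. The ligand gene Tgfb2 rose by 0.25 ± 0.07 (adjusted p = 0.0375), a call that was kept only when Sfpq-/- 3 was the array left out. On omitting control 2 or Sfpq-/- 1, 1 was higher, and 5 higher without Sfpq-/- 3. With at least 1 probe set or the 6 arrays alone, 1 was higher. The insulin-like growth factor system had 5 of 18 members higher and 2 lower. Igf1r, the receptor, read 10.29, 10.26 and 10.39 in controls against 9.35, 9.57 and 9.34 in Sfpq-/- (log2 change -0.89 ± 0.09 SE, adjusted p = 6.23e-05). Pappa and Pappa2, proteases that cut IGF-binding proteins, rose by 0.66 ± 0.10 and 0.76 ± 0.11, along with Igfbp5. Without control 1 or control 2, 1 was lower, and 3 higher without control 2 or Sfpq-/- 1. The number lower was 1 with the 6 arrays alone or the sex term.

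Extracellular matrix genes showed 6 higher and 3 lower of 32. Spon1, F-spondin, read 7.43, 7.21 and 7.05 in controls and 8.07, 7.90 and 8.10 in Sfpq-/- (log2 change 0.80 ± 0.11 SE, adjusted p = 0.000687), and Thbs1, thrombospondin 1, rose by 0.43 ± 0.08. Tnr, tenascin R, fell by 0.49 ± 0.08 and Ncan, the proteoglycan neurocan, by 0.39 ± 0.08. There were 3 higher without control 1 or control 2. The median of probe sets gave 3 higher, and 1 lower with the median of probe sets or the joint omission. Of 23 general neuronal cytoskeleton and adhesion genes 3 rose and 2 fell. The 2 falls were long genes, Ncam1, the neural cell adhesion molecule (log2 change -0.90 ± 0.10 SE, adjusted p = 0.000181), and Ank2, ankyrin B (log2 change -0.82 ± 0.13 SE, adjusted p = 0.00155). Stmn4, a stathmin, rose by 0.68 ± 0.11 and Ina, alpha-internexin, by 0.42 ± 0.09. With control 2 left out, 1 was higher. With the median of probe sets, 0 were higher, and 1 higher with the joint omission.

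Few genes of transcription elongation, 3′ processing and the core spliceosome, steps in which SFPQ takes part, passed at an adjusted p under 0.05. Srsf4, the splicing factor gene that fell, is not in these lists, and the chromatin list given after them held more calls. Of 28 positive elongation and polymerase pausing genes 1 rose and 0 fell (6 higher and 0 lower at an unadjusted p under 0.05). The median was 0.07 and the range -0.14 to 0.28. The 1 rise was Ccnk, the cyclin of the CDK12 and CDK13 kinases, by 0.25 ± 0.07 (adjusted p = 0.0405), kept only with Sfpq-/- 3 left out. The count of higher members became 0 without control 1, control 2, control 3, Sfpq-/- 1 or Sfpq-/- 2, and 3 higher without Sfpq-/- 3. The number higher was 0 with no filter, the 75th percentile filter, the median of probe sets, at least 1 probe set, the 6 arrays alone or the joint omission. None of 20 cleavage, polyadenylation and termination factors passed in limma (0 higher and 1 lower at an unadjusted p under 0.05), and the smallest adjusted p was that of Pabpn1, the nuclear poly(A) binding protein (log2 change -0.20 ± 0.08 SE, adjusted p = 0.183). Leaving out Sfpq-/- 3 gave 1 higher. None of 28 core spliceosome genes passed either (median 0.12, 5 higher and 1 lower at an unadjusted p under 0.05). Among them Cdc5l, of the Prp19 complex, had the smallest adjusted p (log2 change 0.33 ± 0.12 SE, adjusted p = 0.103). On omitting Sfpq-/- 3, 2 were higher. Median centring, the sex term or the joint omission gave 1 higher. Of 32 chromatin remodelling and Polycomb genes 4 rose and 2 fell. Smarcd3 and Smarca2, subunits of the BAF complex, rose by 0.42 ± 0.07 and 0.43 ± 0.08, and Bcl7a, another BAF subunit, fell by 0.39 ± 0.08. Auts2, which spans 1105.9 kb, fell from 10.01 ± 0.07 to 9.43 ± 0.16 (log2 change -0.57 ± 0.11 SE, adjusted p = 0.00476). Without control 2 or control 3, 2 were higher. With the median of probe sets or the 6 arrays alone, 2 were higher.

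In lists of general cell functions few genes passed. Of 25 cytosolic ribosomal protein genes, 7 were higher and 0 lower at an unadjusted p under 0.05, with a median of 0.15. Only Rpl22 passed in limma, as higher (log2 change 0.28 ± 0.08 SE, adjusted p = 0.0365). There were 0 higher without control 2, control 3, Sfpq-/- 1 or Sfpq-/- 2, and 4 higher without Sfpq-/- 3. The number higher was 0 with no filter, the median of probe sets, at least 1 probe set or the 6 arrays alone. Ribosomal protein genes have many processed copies in the genome, and the array does not separate them with certainty. None of 29 nuclear-encoded respiratory chain genes and none of 23 proteasome and ubiquitin genes passed, with medians of 0.06 and 0.09. Without adjustment the counts were 1 higher and 1 lower in the first list and 3 higher and 0 lower in the second. In the second, 2 were higher without Sfpq-/- 3 and 1 with the sex term or the joint omission. In cholesterol synthesis 1 of 20 rose and 1 fell. Ebp, the sterol isomerase, read 8.77, 8.58 and 8.38 in controls and 9.49, 9.43 and 9.15 in Sfpq-/- (log2 change 0.78 ± 0.12 SE, adjusted p = 0.00117), and Insig1, a brake on the sterol-sensing pathway, fell by 0.39 ± 0.09 unless control 1 or control 2 was left out. With control 1 or control 2 left out, 0 were lower, and 3 lower without Sfpq-/- 2. Quantile normalization gave 2 lower, and 3 lower with median centring.

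Glycolysis and hypoxia genes had 3 of 29 higher and 1 lower. Apart from Slc2a3, Egln3, an oxygen-sensing prolyl hydroxylase, rose by 0.45 ± 0.07 and the glycolytic mutase gene Pgam1 by 0.28 ± 0.08, the latter only with all arrays or without Sfpq-/- 3. Ndrg1, a hypoxia-induced gene, fell by 0.48 ± 0.11. The count of lower members became 0 without control 3 or Sfpq-/- 1, and 5 higher without Sfpq-/- 3. With the joint omission, 0 were lower. Of 21 heat shock and chaperone genes 2 rose. Bag3, a co-chaperone of HSP70, read 8.18, 7.98 and 8.14 in controls against 9.09, 8.90 and 8.77 in Sfpq-/- (log2 change 0.82 ± 0.09 SE, adjusted p = 0.000157), and Hspa4l rose by 0.43 ± 0.12. Leaving out control 2, control 3, Sfpq-/- 1 or Sfpq-/- 2 gave 1 higher. The number higher was 1 with no filter, at least 1 probe set or the 6 arrays alone, and 4 higher with the sex term. Among 17 interferon response genes 1 rose, the transcription factor gene Irf9 (log2 change 0.36 ± 0.10 SE, adjusted p = 0.0332). On omitting control 2 or Sfpq-/- 1, 0 were higher, 2 higher without Sfpq-/- 3, and 1 lower without Sfpq-/- 3. No filter, at least 1 probe set or the 6 arrays alone gave 0 higher, 3 higher with the 75th percentile filter, 2 higher with quantile normalization, median centring, the sex term or the joint omission, and 1 lower with the sex term.

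Markers of brain regions and cell types were set beside these results, because a dissected region can hold tissue from its neighbours. In bulk RNA, fewer cells of a type and less RNA in each cell cannot be told apart. Of 10 core pallial factors 3 fell: Lhx2, a selector of cortical fate (log2 change -0.34 ± 0.07 SE, adjusted p = 0.007), Neurod6, a factor of postmitotic neurons (log2 change -0.41 ± 0.08 SE, adjusted p = 0.00848), and Eomes, of intermediate progenitors (log2 change -0.23 ± 0.07 SE, adjusted p = 0.0489), the last only with all arrays or without Sfpq-/- 3. Their summed signal on the linear scale was 14268 to 15245 over the control arrays and 12639 to 13121 over the Sfpq-/- arrays, without overlap. With the median of probe sets all 3 calls were lost and 1 member was higher, and 1 was lower with the joint omission. Leaving out Sfpq-/- 3 alone gave 1 higher. Emx1, the dorsal telencephalic homeobox gene, differed by -0.18 ± 0.08 (adjusted p = 0.189).

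Markers of diencephalon and thalamus, the regions behind the cortex, went the other way, with 5 of 13 higher and 0 lower and a median of 0.29. Barhl2, a homeobox gene, read 9.30, 9.30 and 9.25 in controls and 10.24, 10.22 and 10.04 in Sfpq-/- (log2 change 0.88 ± 0.08 SE, adjusted p = 2e-05). Prox1 read 8.37, 8.33 and 8.39 in controls against 9.01, 9.24 and 9.29 in Sfpq-/- (log2 change 0.82 ± 0.08 SE, adjusted p = 7.63e-05), and Tcf7l2, a Wnt effector, read 8.53, 8.52 and 8.44 in controls against 9.40, 9.42 and 9.10 in Sfpq-/- (log2 change 0.81 ± 0.09 SE, adjusted p = 0.000183). Lhx9 rose by 0.54 ± 0.12, a call lost without Sfpq-/- 1. The summed signal of the 13 markers was 4611 to 5069 in controls, 4973 to 4984 in Sfpq+/- and 6060 to 6697 in Sfpq-/-, and the dimmest marker in controls was Sim1 at a mean of 6.21. Without control 3, 1 was lower, and 3 higher without Sfpq-/- 1. The part of this difference in the other results was not tested.

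For subpallium none of 12 markers passed (0 higher and 2 lower at an unadjusted p under 0.05), but the controls were uneven. Nkx2-1, the selector of the medial ganglionic eminence, read 8.50, 7.38 and 6.84 in controls and 7.29, 6.51 and 6.74 in Sfpq-/-, and Isl1, of striatal progenitors, read 9.25, 8.75 and 7.83 in controls against 7.84, 7.84 and 8.05 in Sfpq-/-. Control 1 was the highest array for both, and the summed signal ran from 4434 to 8320 over controls and from 5234 to 5682 over Sfpq-/- arrays. Without control 1 the differences were -0.26 for Nkx2-1 and -0.38 for Isl1 in place of -0.73 and -0.70, none of which passed. There was 1 lower without control 2 or control 3. With the joint omission, 1 was lower. Neither midbrain and hindbrain markers (0 of 12 passed, 1 higher and 0 lower at an unadjusted p under 0.05), nor those of cortical hem and choroid plexus (0 of 13, 4 higher and 2 lower at an unadjusted p under 0.05), nor those of meninges and mesenchyme (0 of 12, 1 higher and 0 lower at an unadjusted p under 0.05) held a gene that passed. In the list of hem and choroid plexus alone, 1 was lower without control 1 and 1 higher without Sfpq-/- 3. The number higher was 2 with the 75th percentile filter, 1 higher with the median of probe sets, median centring or the joint omission, and 1 lower with the median of probe sets. For midbrain and hindbrain the 75th percentile filter gave 1 higher. The summed midbrain and hindbrain signal was 2788 to 2998 in controls and 3106 to 3232 in Sfpq-/-, and 251 of the difference of 268 in mean sum came from Otx2, a homeobox gene that is also in the hem and choroid plexus list (log2 change 0.33 ± 0.12 SE, adjusted p = 0.104). Without Otx2 the sums of the other 11 overlapped, at 1823 to 2064 in controls and 1772 to 2096 in Sfpq-/-.

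Vessel markers had 1 of 11 higher, the pericyte gene Rgs5 (log2 change 0.30 ± 0.08 SE, adjusted p = 0.028). With control 1, control 2, Sfpq-/- 1, Sfpq-/- 2 or Sfpq-/- 3 left out, 0 were higher. The 75th percentile filter, the median of probe sets, median centring, the 6 arrays alone or the sex term gave 0 higher. Blood cell markers had 2 of 10 higher, both of macrophage lineage cells: Tyrobp, a signalling adaptor, rose by 0.36 ± 0.08 and Cx3cr1, the fractalkine receptor, by 0.31 ± 0.09. Neither call held with every array left out in turn, and that of Cx3cr1 was lost in all 6 cases. The count of higher members became 1 without control 1, Sfpq-/- 2 or Sfpq-/- 3, 0 higher without control 2, control 3 or Sfpq-/- 1, and 1 lower without control 2. With no filter, the 75th percentile filter, the median of probe sets, at least 1 probe set, median centring, the 6 arrays alone or the sex term, 1 was higher, and 0 higher with the joint omission. The summed blood cell signal overlapped, at 23116 to 25290 in controls and 21556 to 25355 in Sfpq-/-.

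**Figure D5:**
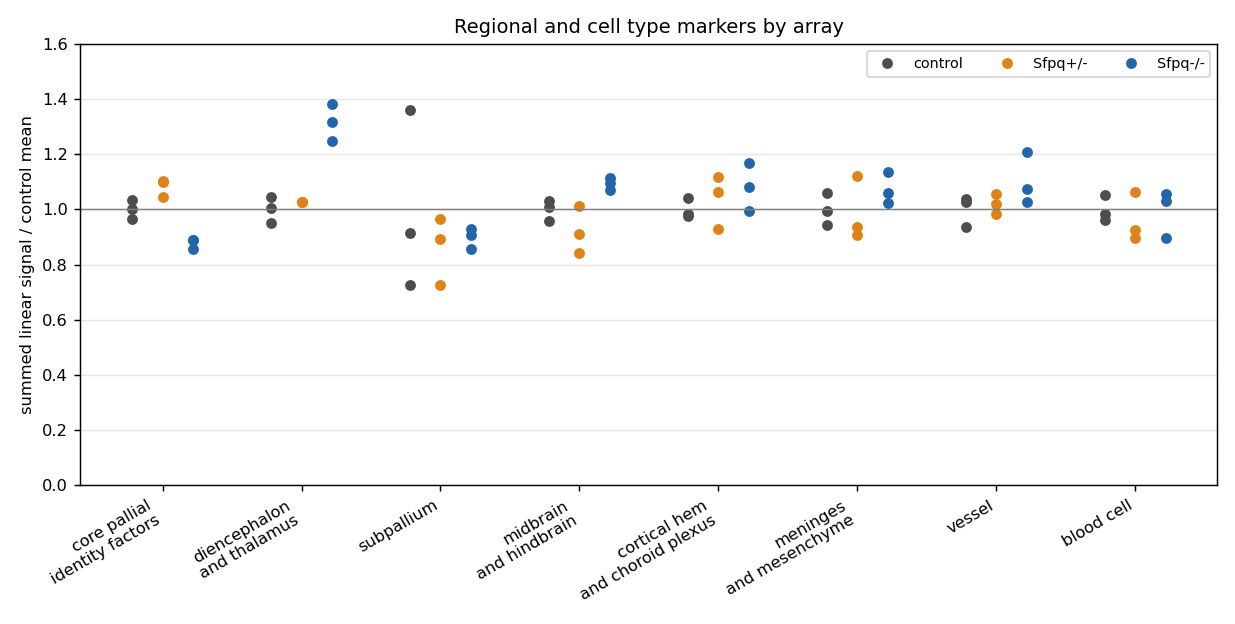
Summed linear signal of 8 marker lists on each array, divided by the mean of the control arrays, with 1 point per array and 3 arrays in each group. The Sfpq-/- points lie below the controls for pallial factors and above them for diencephalon and thalamus and for midbrain and hindbrain markers, the last mostly by Otx2, and 1 control array stands high for subpallium.

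The largest differences among genes that failed the test, or whose arrays overlapped, came from genes with uneven arrays. Apart from the sex-linked Xist (-2.33 ± 1.85), Kdm5d (1.43 ± 1.21) and Eif2s3y (1.52 ± 1.22), they were Stat4, Sfta3-ps and Gsta4. Stat4, a transcription factor of cytokine signalling, read 8.41, 8.58 and 7.74 in controls and 7.38, 7.89 and 6.78 in Sfpq-/- (log2 change -0.89 ± 0.26 SE, adjusted p = 0.0479), so Sfpq-/- 2 lay above control 3, and the call was lost without control 1, control 2, Sfpq-/- 1 or Sfpq-/- 3. Sfta3-ps, a long noncoding RNA gene in RefSeq, read 8.39, 7.11 and 6.95 in controls against 6.82, 6.40 and 6.56 in Sfpq-/- (log2 change -0.89 ± 0.37 SE, adjusted p = 0.163), with control 1 far above the others, and without it the difference was -0.44. Gsta4, a glutathione transferase that removes lipid aldehydes, read 10.58, 10.61 and 10.33 in controls against 11.57, 11.28 and 11.23 in Sfpq-/- (log2 change 0.86 ± 0.31 SE, adjusted p = 0.114), apart between these groups, while Sfpq+/- 1 at 9.42 stood below all other arrays.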

How the data were processed

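Total RNA of 9 mouse cortex samples was hybridised to Affymetrix Mouse Exon 1.0 ST arrays, 1 array per sample, 3 per genotype. The authors deposited a log2 signal for each probe set. The submitters' processing notes name Affymetrix Expression Console 1.2.0.20, while the series' design text names the Exon Array Computational Tool. The sources used here do not say how background and arrays were adjusted, and no normalization was added. The platform annotation gave 318760 of 1256831 probe sets (25.4%) 1 gene symbol, 6684 several and 931387 none, and only the first were used. Probe sets with a mean over 9 arrays above 5.64, the median over the whole table, were kept, which left 248590 in 16854 genes with at least 3 each. The labels do not say whether replicate numbers pair the samples, and the main fit did not pair them.

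Gene levels were fitted over all 9 arrays with 3 group means in limma 3.58.1 (R 4.3.3), and called where the Benjamini-Hochberg adjusted p was under 0.05. On simulated data for Sfpq-/- against control with 16854 genes, 59% of 100 changes of 0.5 and 97% of 100 changes of 1 were found, with 4 false calls. The simulated noise was independent and equal on all arrays, with few genes changed. The measured arrays differed in spread and in sex, so these rates may not carry over. Spans and promoters came from RefSeq tables of GRCm38.p6, matched by symbol for 16694 genes. The build behind the array annotation was not stated. The comparison, its lists and its rules were chosen with earlier results of these data known. 1 further gene list is not reported here, and its members are not in the counts over gene groups. Named were ranks 11 to 25 in each direction, the 6 largest moderated t values in each, 8 short lower and 8 long higher genes, 8 long genes near 0, the 6 largest changes each way among the brightest genes, the 6 largest changes that did not qualify, up to 4 members per list with the smallest adjusted p, and Sfpq. Genes named by rank, moderated t, brightness, or span with a change had to pass and to have control and Sfpq-/- arrays that did not overlap. Acot2, Cldn6, Dlx1, Emx1 and Tbr1 were named after their values were seen. Alternatives covered the filter, the probe set summary, normalization, array weights, sex, the replicate block and leaving out arrays.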

Additional observations from a re-analysis of the deposited data

How the results depend on the processing

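The filter, quantile normalization, median centring, leaving out X and Y genes, sex as a term, and leaving out control 3 with Sfpq-/- 3 kept the counts over all genes that passed within 1.5 times of the reported ones. Counts of single gene lists were less stable: of 66 (33 lists, higher and lower), 1 to 15 moved by more under these settings and the median of probe sets or the 6 arrays alone, 7 to 16 with 1 array left out, 11 with the replicate block and 37 with array weights. With the median of probe sets there were 665 higher genes and with the 6 arrays alone 668, against 1008. Gene-by-gene array weights gave 4612 genes, 2756 higher and 1856 lower, the weights running from 0.36 to 3.18; these weights, the sex term and the joint omission of control 3 and Sfpq-/- 3 were added after seeing the data. The weights took the place of limma's default method, the planned one, which did not converge and gives no value here. Leaving out 1 array gave 1311 to 2453 genes, 543 to 1477 higher and 768 to 1168 lower. For Sfpq the change ran from -1.30 to -1.03 over those fits. Deviations of same-numbered control and Sfpq-/- arrays correlated at 0.28, 0.01 and 0.57, and those of other pairs at -0.53 to 0.36. Whether the numbers pair the arrays cannot be told from these values. The replicate block gave 2469 genes, 1303 higher and 1166 lower. Over the named genes and these alternatives, 3695 values kept their direction and side of the threshold, 142 lost the call, 83 gained it and 51 without a call moved by more than their standard error; no called gene reversed. The causes were not tested.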

Other observations

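Shares of called genes are given by chromosome as a description, with no test of evenness. On X, 52 of 577 genes (9.0%) were higher, the largest share of the 20 chromosomes with values, and with embryo sex as a term in the model 56 (9.7%) were. Chromosome 1 had 7.5% higher and 8.0% lower of 990 genes, and chromosome 17 had 3.0% lower of 808. Of 264 pseudogenes 1.9% were higher and 0.8% lower, against 6.1% and 6.2% of 15663 protein-coding genes, and of 643 long noncoding RNA genes 5.1% and 5.0%.

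Some called genes were neighbours among the genes tested. Higher genes formed 16 runs of 3 neighbours and 1 of 4, the latter Parvg, Shisal1, Rtl6 and Prr5 on chromosome 15. Lower genes formed 10 runs of 3 and 1 of 4, Fmnl2, Rprm, Galnt13 and Kcnj3 on chromosome 2. Further lower runs were Fezf2, Cadps and Synpr on chromosome 14, where Fezf2 is a selector of deep-layer projection neurons, Gria2, Glrb and Pdgfc on chromosome 3, and Galnt17, Auts2 and Castor2 on chromosome 5. Higher runs included Slx4ip, Jag1 and Btbd3 on chromosome 2, where Jag1 encodes a Notch ligand, and Tbc1d25, Ebp and Porcn on X. These runs were not tested.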
